A study of Mus musculus with 6 samples.

Results

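The genes of MHC class II antigen presentation were read in whole inguinal mammary glands of mice that lack the matrix metalloproteinase gene Mmp14 in stromal cells. The set holds 8 genes chosen by name: the class II chains H2-Aa, H2-Ab1 and H2-Eb1, the peptide-exchange chains H2-DMa and H2-DMb1, the invariant chain gene Cd74, the master regulator Ciita and the protease gene Ctss. Of the 8, 7 were measured, among 22180 genes with a probe set of their own. The only probe set listed for Cd74 is also listed for the microRNA gene Mir5107, so it is not assigned to either gene and Cd74 is not analysed here.

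All glands came from C57BL/6J mice 4 weeks old, with the epithelium left in place. The wild-type group of 3 arrays carried Mt1-mmp(+/+), the older name of Mmp14. The stromal knockout group of 3 arrays carried Dermo1Cre/Mt1-mmp(fl/fl), in which Cre from the Dermo1 locus (now Twist2), active in mesenchymal cells, removes the floxed gene. The labels call the arrays of each group biological replicates and name Cre only in the knockout, so Cre itself and the loss of Mmp14 cannot be told apart. Values are log2 signals after robust multi-array averaging (RMA), and a difference is knockout minus wild type in log2 units. A call means an adjusted p under 0.05 from limma's moderated test over all genes.

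MHC class II molecules are pairs of an alpha and a beta chain that carry peptides from endosomes to the cell surface, where CD4 T cells read them. The invariant chain fills the peptide groove until cathepsin S, the product of Ctss, trims it, and the DM pair then exchanges the remaining fragment for a peptide. Ciita is the coactivator that turns on the genes of the class II, DM and invariant chains. It acts through a complex of RFX, NF-Y and CREB family proteins at the X and Y boxes of their promoters. Dendritic cells, macrophages and B cells express these chain genes constantly, and in the mammary gland macrophages and dendritic cells lie along the ducts. Interferon gamma can induce them in other cell types. In the C57BL/6 strain the H2-Ea gene is defective, so the beta chain from H2-Eb1 has no alpha partner.

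The promoter stretches that hold the X and Y boxes are shown because these boxes are where Ciita acts on the class II chain genes. RefSeq promoter windows of build GRCm38.p6 (250 bases before to 50 after a start) were on hand for 5 of the 7 measured genes, all but H2-Ab1 and Ciita. They were searched on both strands for GNAAC, the core of an X box, followed after 20 to 35 bases by GATTGG, the core of a Y box. The motifs were chosen with these sequences in view. The pair stood in the windows of H2-Aa (chr17:34287861-34287912, minus strand), H2-Eb1 (chr17:34305768-34305818, plus strand) and H2-DMb1 (chr17:34153089-34153140, plus strand). In the stretches below, capitals mark the X and Y cores.
H2-Aa: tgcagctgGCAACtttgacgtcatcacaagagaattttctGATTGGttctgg
H2-Eb1: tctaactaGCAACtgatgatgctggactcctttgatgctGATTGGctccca
H2-DMb1: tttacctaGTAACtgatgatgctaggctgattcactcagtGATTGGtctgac

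The bases between the cores numbered 27 in H2-Aa, 26 in H2-Eb1 and 27 in H2-DMb1. Of 32851 promoter windows of the same length, 303 (0.922%) held the pair. Among 4 other class II chain genes with a window, H2-Eb2, H2-Oa and H2-Ob held it and H2-DMb2 did not, and among 19 class I pathway genes with a window 0 held it. The windows of H2-DMa and Ctss have no such pair. The Ctss window holds a repeat of GAAA with 2 bases between the copies, a motif of the type bound by interferon regulatory factors (chr3:95526753-95526785, plus strand). The repeat stood in 3.44% of windows and in those of 4 of the 19 class I genes. Its first bases also match GNAAC, so these searched motifs overlap there. Capitals mark the repeat and the bases between.
Ctss: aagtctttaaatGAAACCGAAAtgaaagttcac

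Mmp14 checked the labels, with 10.88 in wild type and 8.62 in the knockout (difference -2.25 ± 0.17 SE, limma adjusted p = 0.000454). Over genes, array medians lay between 4.45 and 4.71. The tissue carried fat, stromal and epithelial transcripts, with Fabp4 at 12.73, Dcn at 12.46 and Foxa1 at 9.43 in wild type. Epithelial genes were lower in the knockout: 18 of 18 luminal markers and 9 of 13 basal markers fell. The mean of 15 skeletal muscle genes, a list added after the data had been seen, was 5.62 in wild type 1 and 2.93 to 3.49 in the other arrays, so wild type 1 stood apart in muscle content. In bulk tissue, fewer cells of a type and less RNA per cell cannot be told apart.

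All 7 measured genes were lower in the knockout by group mean, as were 10107 of all 22180 genes. H2-DMb1, among the 7, read too low for a difference to be read. Of the 7, 2 passed the test: H2-DMa and Ctss. The differences of the 7 ran from -0.71 to -0.36, with a median of -0.54, against a median of 0.03 over all 22180 genes. Lower calls made up 7.2% of all genes. In 5 of the 7 (H2-Aa, H2-Ab1, H2-Eb1, H2-DMa and Ctss) every knockout array lay under every wild-type array, as was so for 15.4% of all genes. Wild type 2 was the lowest wild-type array for all 7. With that array left out, 5 of the 7 passed. When wild type 1 or 3, or knockout 2 or 3, was left out, 0 passed limma's adjusted threshold (unadjusted p under 0.05 in 3, 3, 3 and 5), and 1 passed without knockout 1. With each array centred on its median over genes, a step that took the all-gene median from 0.03 to 0.22, the 7 were still lower, by a median of 0.36, and 0 passed limma's adjusted threshold (unadjusted p under 0.05 in 3).

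**Figure D1:**
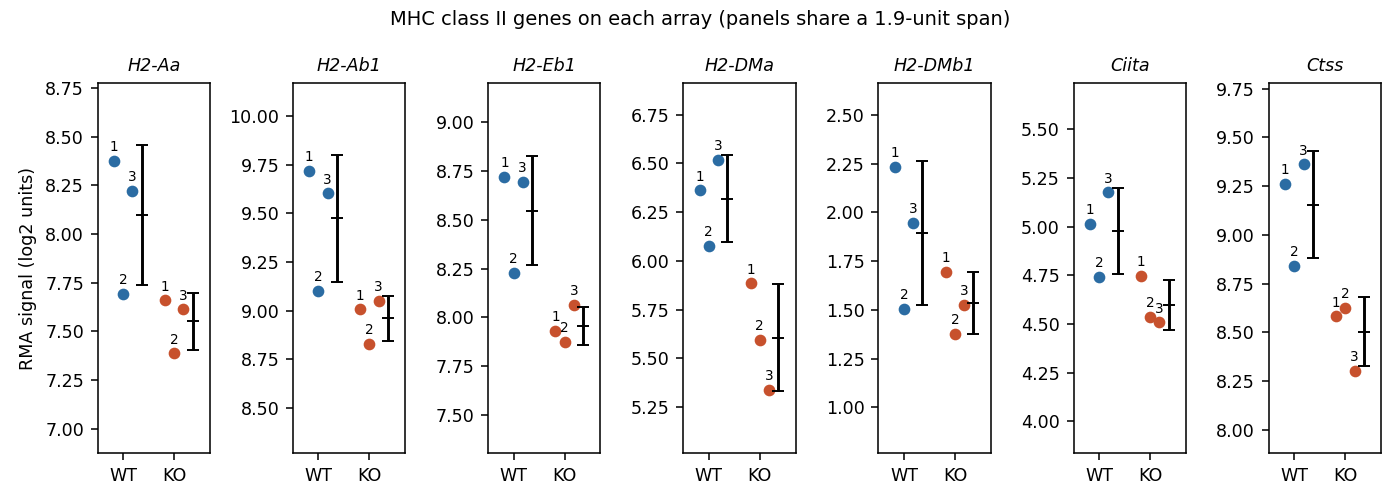
Log2 signal of the 7 measured class II genes on each of the 3 wild-type (WT, blue) and 3 stromal knockout (KO, orange) arrays, with the replicate number above each point and mean ± SD as black bars. The panels share a span but not a position on the axis. Wild type 2 is the lowest wild-type point in each panel, and the groups overlap for H2-DMb1 and Ciita.

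The chains that form the surface molecules came first in role. H2-Aa, the alpha chain of I-A, was 8.37, 7.69 and 8.22 in wild type 1 to 3 and 7.66, 7.39 and 7.61 in knockout 1 to 3. The groups did not overlap, but wild type 2 lay only 0.031 above the highest knockout array. The knockout level was 68.6% of wild type (difference -0.54 ± 0.19 SE, 95% interval -0.98 to -0.10). The difference did not pass (limma adjusted p = 0.111, exact two-sided permutation p = 0.1). The exact permutation p was also 0.1, its lowest possible value, for H2-Ab1, H2-Eb1, H2-DMa and Ctss. It was 0.2 for Ciita and 0.3 for H2-DMb1.

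H2-Ab1, the beta chain that pairs with H2-Aa, was 9.72, 9.10 and 9.60 in wild type and 9.01, 8.83 and 9.05 in the knockout. Again wild type 2 sat beside the knockout arrays, 0.054 above the highest of them. The difference was -0.51 ± 0.18 (95% interval -0.92 to -0.10, 70.1% of wild type) and did not pass (limma adjusted p = 0.106). Both I-A chains passed without wild type 2, H2-Aa at -0.75 (limma adjusted p = 0.0279) and H2-Ab1 at -0.70 (limma adjusted p = 0.0275). Neither passed with any other array left out (limma adjusted p 0.163 to 0.286 for H2-Aa and 0.150 to 0.2745 for H2-Ab1).

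H2-Eb1, the beta chain of I-E, was 8.72, 8.23 and 8.70 in wild type and 7.93, 7.88 and 8.06 in the knockout. The groups were apart by 0.16, with wild type 1 and wild type 3 close together and high. Its difference of -0.59 ± 0.16 (95% interval -0.96 to -0.22, 66.4% of wild type) narrowly missed the threshold (limma adjusted p = 0.0503). It passed without wild type 2 at -0.75 (limma adjusted p = 0.0188), and with the other arrays left out in turn the limma adjusted p ran from 0.0756 to 0.152.

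The peptide-exchange genes followed. H2-DMa, the alpha chain of DM, was 6.36, 6.08 and 6.52 in wild type and 5.88, 5.60 and 5.34 in the knockout. All knockout arrays were under the wild-type arrays, and knockout 3 was the lowest. It fell by 0.71 ± 0.18 (95% interval -1.13 to -0.30, 1.64-fold, limma adjusted p = 0.0390), a call kept without wild type 2 (0.0420) or knockout 1 (0.0335) and lost when any of the other 4 arrays was left out (limma adjusted p 0.0941 to 0.119). H2-DMb1, one of the DM beta chain genes, was 2.23, 1.503 and 1.95 in wild type and 1.695, 1.38 and 1.53 in the knockout. Every array lay under 2.68, the 33rd percentile of levels over genes, too dim for a difference to be read, and the groups overlapped (difference -0.36 ± 0.19, limma adjusted p = 0.291). H2-DMb2, a near-identical copy whose reads the probes may share, was 4.95, 5.02 and 5.35 in wild type and 5.26, 5.003 and 5.27 in the knockout. The H2-DMb2 groups overlapped, and its difference of +0.07 had a 95% interval of -0.27 to 0.42 (limma adjusted p = 0.805).

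Ctss, whose cathepsin cuts the invariant chain, was 9.26, 8.84 and 9.36 in wild type and 8.58, 8.63 and 8.30 in the knockout. The groups were apart by 0.22, the widest gap among the 7 genes. Ctss fell by 0.65 ± 0.17 (95% interval -1.05 to -0.26, 1.57-fold, limma adjusted p = 0.0451). The call was kept without wild type 2 (-0.81, limma adjusted p = 0.0247) and lost without any other 1 array (limma adjusted p 0.0857 to 0.138).

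Ciita, the transactivator itself, was 5.01, 4.74 and 5.18 in wild type and 4.75, 4.54 and 4.51 in the knockout. Knockout 1 and wild type 2 were level to within 0.01, with knockout 1 the higher. The difference of -0.38 ± 0.15 (95% interval -0.72 to -0.04, 76.9% of wild type) did not pass (limma adjusted p = 0.148), nor did it under any alternative that was run (limma adjusted p 0.0827 to 0.374).

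The members differed in array order. Within wild type, H2-Aa, H2-Ab1, H2-Eb1 and H2-DMb1 were highest in wild type 1, the array with the muscle transcripts, and H2-DMa, Ciita and Ctss in wild type 3. Within the knockout, H2-Aa, H2-Ab1, H2-Eb1 and H2-DMb1 were lowest in knockout 2, and H2-DMa, Ciita and Ctss in knockout 3. Some of these orders were near ties. H2-Eb1 was 8.72 in wild type 1 and 8.70 in wild type 3, and Ciita 4.54 in knockout 2 and 4.51 in knockout 3. H2-DMb1 was too dim for its order to be read. The 2 called genes gave the profile against which other genes were set, by the root mean square difference of values centred on each gene's own mean over the 6 arrays. Among 13689 other genes, the nearest were Sec14l2 (0.076 log2 units), Asxl3 (0.081), Ighm, the constant region of IgM made by B cells (0.085), C5ar1, the receptor of complement C5a on myeloid cells (0.088), and Creb3l4 (0.090). Each of these passed the test, which is no separate result, since they were picked for nearness to 2 genes called by that test. None passed under all 14 alternatives. Ighm lost its call in 8, Sec14l2 in 7, C5ar1 in 6, Creb3l4 in 5 and Asxl3 in 3. The mean of the Ighm probe sets did not pass (limma adjusted p = 0.766). For comparison, H2-Eb1 was 0.18 and H2-Aa 0.20 from that profile.

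The other genes of the pathway were a list of 42, of which 41 were measured. Of these, 13 fell and 2 rose, with a median difference of -0.17, which turned to 0.02 with arrays centred on their medians, where 7 fell and 5 rose. Either call was made in 12.2% of all genes, 7.2% lower and 5.05% higher. With 1 array left out, 7 to 10 fell and 1 to 2 rose, and the fewest calls in all (8) came without knockout 2, with 9 without wild type 1 or wild type 3.

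**Figure D2:**
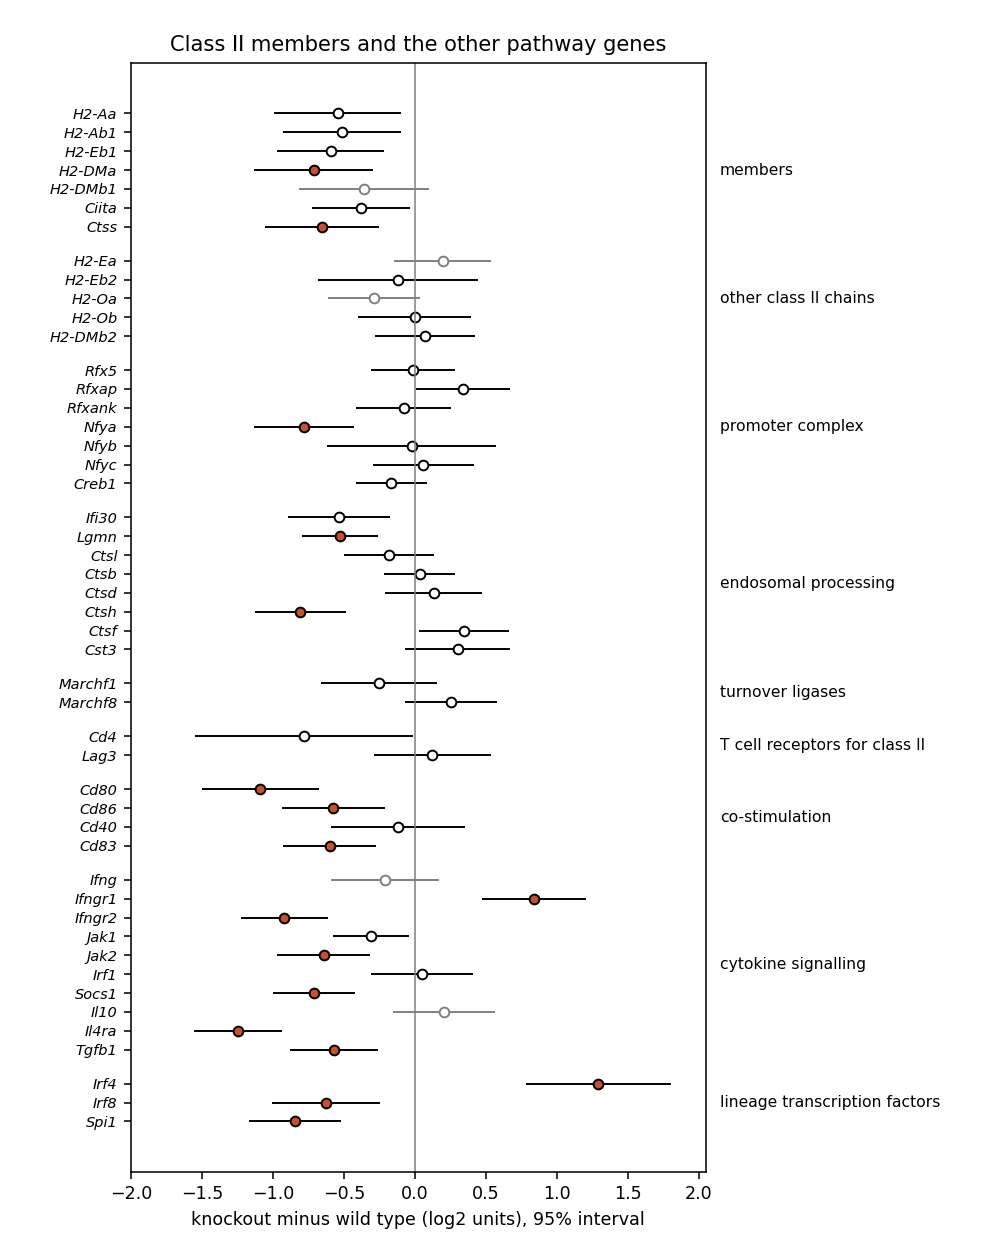
Difference between knockout and wild type (log2 units, point) with its 95% interval (line) for the 7 members and 41 other pathway genes, ordered by role. Filled points passed limma's adjusted threshold, open points did not, and grey marks genes whose group means both lie under 2.68. The 3 called co-stimulation genes lie to the left of 0 with the members, while the other class II chains straddle 0.

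Among the other class II chain genes, 0 of 5 passed limma's adjusted threshold (unadjusted p under 0.05 in 0). H2-Ea, defective in this strain, read 1.65, 1.54 and 1.43 in wild type and 1.98, 1.55 and 1.67 in the knockout, all under 2.68. H2-Oa and H2-Ob, the chains of DO, which restrains DM in B cells, had means of 2.55 and 2.82 in wild type and 2.27 and 2.82 in the knockout. H2-Eb2 was at 2.86 in the first group and 2.74 in the second. These 4 genes thus read near or under the level where changes can be seen.

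Of 7 genes for the promoter complex that recruits Ciita, 1 fell and 0 rose. Nfya, the DNA-binding partner within NF-Y, was 7.96, 8.0002 and 7.96 in wild type and 7.11, 6.98 and 7.48 in the knockout. The groups were far apart relative to their spread, and Nfya fell by 0.78 ± 0.15 (limma adjusted p = 0.0140), a call missed narrowly without wild type 1 (0.0512) or knockout 2 (0.0517). Nfya was named after its values were seen. Rfx5, the large RFX subunit, had a mean of 6.60 in wild type and 6.59 in the knockout (95% interval of the difference -0.30 to 0.28).

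Of 8 endosomal processing genes, 2 fell. Ctsh, an aminopeptidase of the cathepsin family, was 9.24, 8.93 and 9.16 in wild type and 8.27, 8.18 and 8.46 in the knockout, a fall of 0.81 ± 0.13 (limma adjusted p = 0.0089). Lgmn, the asparaginyl endopeptidase legumain, fell by 0.53 ± 0.11 (limma adjusted p = 0.0226), a call lost without any 1 array other than wild type 2 (limma adjusted p 0.0565 to 0.0756). Ifi30, the thiol reductase of antigen-processing endosomes, differed by -0.53 ± 0.15 and did not pass (limma adjusted p = 0.0607; 0.0381 without wild type 2). The general lysosomal cathepsins Ctsb and Ctsd differed by +0.04 ± 0.10 and +0.14 ± 0.14 (limma adjusted p = 0.870 and 0.612). Ctsh, Lgmn, Ifi30, Ctsb and Ctsd were named after their values were seen.

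Of 4 co-stimulation genes, 3 fell, and 1 or 2 did with any 1 array left out (1 without each of the arrays other than knockout 2). Only Cd80 passed with an intensity trend, a robust trend, quantile normalization repeated or arrays centred on their medians, where Cd83 had limma adjusted p 0.051 to 0.0913. Cd80, which binds CD28 on T cells, was 6.25, 6.69 and 6.10 in wild type and 5.34, 5.08 and 5.35 in the knockout. The groups were well apart, and Cd80 fell by 1.09 ± 0.18 (2.13-fold, limma adjusted p = 0.00785). Cd86 (-0.57 ± 0.15, limma adjusted p = 0.0482) lost its call without any 1 of the 6 arrays (0.0732 to 0.126) and with an intensity trend (0.0503), and Cd83 (-0.60 ± 0.14, limma adjusted p = 0.0299) without any 1 other than knockout 2 (0.0601 to 0.0872). Both were named after their values were seen.

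Of 10 measured genes for cytokine signalling to class II, 5 fell and 1 rose. The falls numbered 3 when wild type 2 or 3, or knockout 1 or 2, was left out, where Jak2, a kinase of the interferon gamma receptor (-0.64 ± 0.14, limma adjusted p = 0.0234), and the cytokine gene Tgfb1 (-0.57 ± 0.13, limma adjusted p = 0.0291) did not pass (limma adjusted p 0.0642 to 0.0937). They also numbered 3 with arrays centred on their medians. The interferon gamma receptor chains moved apart. Ifngr1, the ligand-binding chain, was 9.54, 9.76 and 10.001 in wild type and 10.71, 10.69 and 10.42 in the knockout, a rise of 0.84 ± 0.16 (limma adjusted p = 0.0128; 0.0519 without knockout 2). Ifngr2, the signalling chain, was 8.44, 8.26 and 8.19 in wild type and 7.33, 7.26 and 7.53 in the knockout, a fall of 0.92 ± 0.13 (limma adjusted p = 0.00467). Il4ra, the receptor chain for interleukins 4 and 13, fell by 1.24 ± 0.13 from 8.11 to 6.87 (2.37-fold, limma adjusted p = 0.00149). The cytokine gene Ifng itself averaged 2.40 over the wild-type arrays and 2.19 over the knockout arrays, under 2.68 in both, and Irf1, an early target of interferon gamma, differed by +0.05 ± 0.15 (95% interval -0.30 to 0.40, limma adjusted p = 0.869). Socs1, of the same list, fell by 0.71 ± 0.12 from 3.71 to 2.99 (limma adjusted p = 0.00972), a call kept under all 14 alternatives. Ifng, Irf1, Jak2, Socs1 and Tgfb1 were named after their values were seen.

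All 3 lineage transcription factors passed, in different directions. Spi1 (PU.1), which specifies myeloid and B cells, was 7.10, 7.32 and 7.03 in wild type and 6.49, 6.21 and 6.23 in the knockout. It fell by 0.84 ± 0.14 (limma adjusted p = 0.00788). Irf4, a factor of dendritic and plasma cells that adipocytes also use, was 7.48, 7.74 and 7.60 in wild type and 9.31, 8.42 and 8.97 in the knockout. It rose by 1.29 ± 0.22 (2.45-fold, limma adjusted p = 0.00917), opposite to the members. Irf8, a dendritic cell and macrophage factor named after its values were seen, differed by -0.63 ± 0.16 (limma adjusted p = 0.0425), but not when its probe sets were averaged (limma adjusted p = 0.310) or without any 1 array other than knockout 1 (0.0685 to 0.131).

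MHC class I genes, which present peptides made inside the cell to CD8 T cells, did not lie lower with class II. Of 22 listed, 19 were measured, of which 0 fell and 1 rose (limma adjusted threshold; 1 lower and 5 higher at an unadjusted p under 0.05), with a median difference of +0.19. With arrays centred on their medians that median was +0.38 and 5 rose. H2-K1, a classical heavy chain, was 9.88, 9.50 and 10.15 in wild type and 10.11, 10.07 and 10.39 in the knockout. Its groups overlapped, and the 95% interval of the difference ran from -0.08 to 0.78 (limma adjusted p = 0.285). B2m, the light chain, differed by +0.09 (95% interval -0.16 to 0.33, limma adjusted p = 0.656). H2-Q4 rose by 0.58 ± 0.14 (limma adjusted p = 0.0368), but not without any 1 array other than knockout 3 (0.0518 to 0.115) nor when its probe sets were averaged (0.367), and its close relatives may share its probes. The difference between the class I and class II genes was not tested. H2-K1 and B2m were named after their values were seen.

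Both classes lie side by side in the H2 region of chromosome 17. In the order of the RefSeq table, 15 genes run from H2-Oa to H2-Ea, and all 15 were measured. H2-DMa was the 1 that passed. The 4 class I peptide-supply genes between H2-DMb1 and H2-Ob, namely Psmb9, Tap1, Psmb8 and Tap2, differed by +0.37, +0.19, +0.33 and +0.09, and their next neighbours beyond H2-Ob, H2-Ab1, H2-Aa and H2-Eb1, by -0.51, -0.54 and -0.59. Neither set passed as single genes (limma adjusted p from 0.0503 to 0.707).

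**Figure D3:**
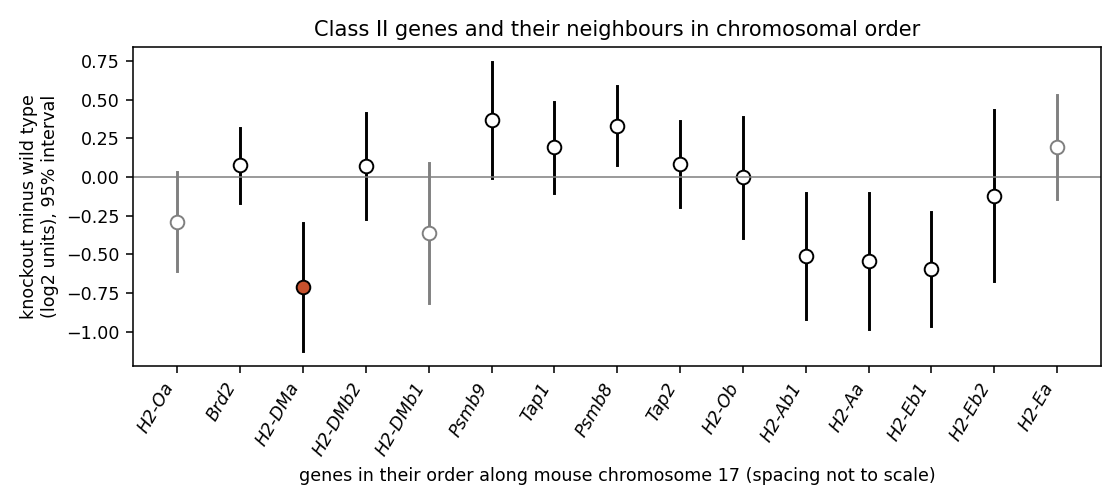
Difference between knockout and wild type (log2 units) with its 95% interval for 15 neighbouring genes of chromosome 17 in their order, spacing not to scale. The filled point passed limma's adjusted threshold, and grey marks genes whose group means both lie under 2.68. The points of the class I genes Psmb9 to Tap2 lie above 0, and H2-Ab1, H2-Aa and H2-Eb1 below it.

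Markers of other cell types were read beside these genes. Of 14 general leukocyte markers, 10 fell and 0 rose, with a median of -0.64. Their mean ranged from 6.97 to 7.2045 in wild type and 6.40 to 6.51 in the knockout, and all 14 read above 2.68 in at least 1 group. Ptprc (CD45) was 8.12, 8.16 and 8.42 in wild type and 7.47, 7.16 and 7.28 in the knockout, a fall of 0.93 ± 0.14 (limma adjusted p = 0.00576). The actin-bundling gene Lcp1 fell by 1.17 ± 0.16, Lsp1 by 0.99 ± 0.11 and the tetraspanin gene Cd53 by 0.83 ± 0.11 (limma adjusted p = 0.0041, 0.0021 and 0.0043). Rac2, a GTPase of blood cells, passed at -0.81 ± 0.21 (limma adjusted p = 0.0416), but not without any 1 array other than knockout 3 (0.0535 to 0.122). Of 18 macrophage markers, 10 fell and 0 rose, with a median of -0.57 and a mean of 8.36 to 8.61 in wild type against 7.84 to 7.97 in the knockout. Cd68, a lysosomal protein of macrophages, fell by 1.22 ± 0.14 (limma adjusted p = 0.00226), and Fcgr1, the high-affinity IgG receptor, by 1.46 ± 0.20 (limma adjusted p = 0.00407). Lyz2, lysozyme, fell by 0.83 ± 0.19 (limma adjusted p = 0.0277), a call lost without wild type 1, knockout 1, knockout 2 or wild type 3 (0.0767 to 0.0952). Lyve1, of resident macrophages and lymphatic vessels, differed by +0.06 ± 0.17 (limma adjusted p = 0.875). Without wild type 1, wild type 3 or knockout 2, 5 leukocyte markers fell, and 5, 6 and 5 macrophage markers. Ptprc was named after its values were seen.

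**Figure D4:**
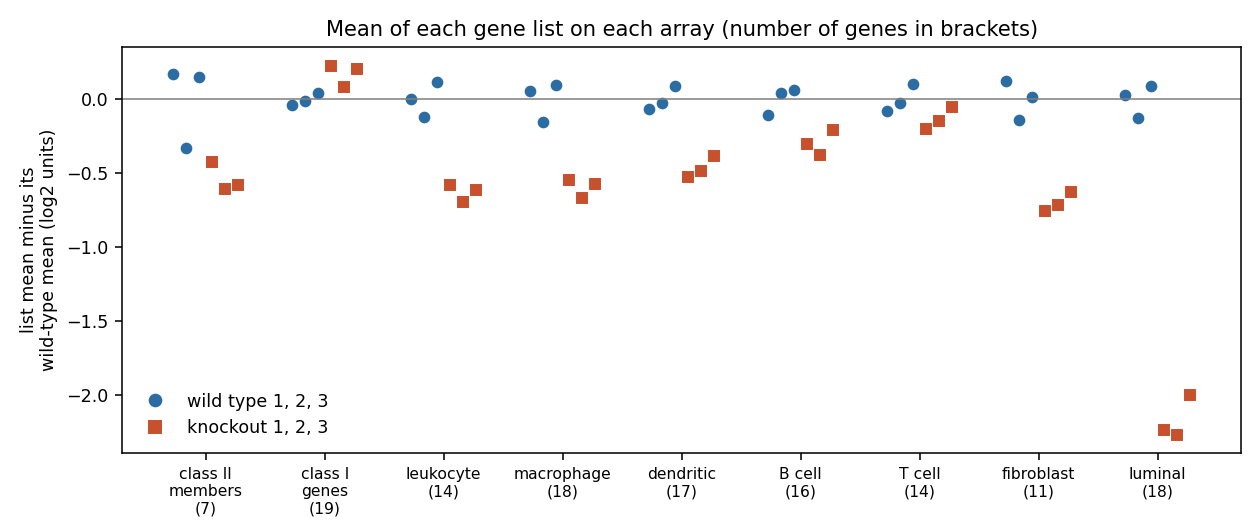
Mean log2 signal of each gene list on each array, as its distance from the wild-type mean of that list (circles, wild type; squares, knockout). The class II members, leukocyte, macrophage, dendritic, B cell, fibroblast and luminal lists lie lower in the knockout and the class I list higher. Wild type 2 is the lowest wild-type point for the members, leukocytes, macrophages, fibroblasts and luminal cells, and it is lowest too in the basal and endothelial lists, which are not plotted.

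Of 17 dendritic cell markers, 4 fell and 0 rose, with a median of -0.49 and a mean of 5.32 to 5.48 in wild type against 4.87 to 5.01 in the knockout. Itgax (CD11c) fell by 1.29 ± 0.21 (limma adjusted p = 0.00850), and Cd24a, which luminal epithelium also expresses, by 1.72 ± 0.22 (limma adjusted p = 0.00291). Tcf4, a factor of plasmacytoid dendritic cells, passed at -0.49 ± 0.12 (limma adjusted p = 0.0366) but not without any 1 of the 6 arrays (0.0559 to 0.115). Tcf4 read 8.79 in wild type, far above the mean of this list, and which cells it came from was not tested. Flt3 and Zbtb46, which define conventional dendritic cells and were named after their values were seen, differed by -0.10 ± 0.19 and -0.10 ± 0.16 (limma adjusted p = 0.789 and 0.746). With 1 array left out, 2 to 3 of the dendritic markers fell, with 2 without wild type 1, wild type 3 or knockout 2. With arrays centred on their medians, 2 dendritic markers fell and 2 rose, with a median of -0.30. Of 16 B cell markers, 3 fell, among them Blnk (-1.53 ± 0.17) and Cd37 (-0.72 ± 0.15, which lost its call without wild type 1, wild type 3 or knockout 2, limma adjusted p 0.0567 to 0.0683). The B cell mean was 3.58 to 3.74 in wild type and 3.30 to 3.47 in the knockout, and the B cell genes Ms4a1, Cr2, Fcer2a and Spib read under 2.68 in both groups. With centred arrays the B cell median was -0.03, with 8 of 16 markers lower. B cell falls numbered 1 without wild type 1, wild type 3 or knockout 2. Of 14 T cell markers, 1 fell, Cd2 (-0.48 ± 0.13, limma adjusted p = 0.0476). With 1 array left out, the Cd2 call was kept only without wild type 1 and otherwise lost (limma adjusted p 0.0973 to 0.137). Over all 14 alternatives it was lost in 10. The receptor genes Cd3e and Cd3g differed by -0.07 ± 0.24 and -0.53 ± 0.26 (limma adjusted p = 0.885 and 0.239). The T cell median was -0.13, which turned to 0.06 with arrays centred on their medians. The T cell mean was 3.48 to 3.67 in wild type and 3.37 to 3.51 in the knockout, with Cd3d and Ccr9 under 2.68 in both groups. Of 7 genes for lymph node stroma and lymphatic vessels, 1 fell (Pdpn) and 1 rose (Cxcl13), and neither call held without wild type 1, wild type 2, wild type 3 or knockout 2 (limma adjusted p 0.0546 to 0.119). Of 11 fibroblast markers, 6 fell and 0 rose, all 11 were lower by group mean, and the median was -0.57. Of 11 adipocyte markers 3 rose (median +0.29) and of 12 endothelial markers 3 rose (median +0.47), and 0 of either fell by limma's adjusted threshold (unadjusted p under 0.05 and lower in 0 and 1). With arrays centred on their medians 6 adipocyte and 10 endothelial markers rose. Without knockout 2, 1 adipocyte marker rose, and without knockout 1, 5 endothelial markers did. The part of these cell markers, and of wild type 1's muscle content, in the values of the class II genes was not tested.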

How the data were processed

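Total RNA (400 ng per sample, per the labels' protocols) of 6 mammary glands was hybridised to Affymetrix arrays. The authors deposited log2 values, 1 per probe set and array, made with RMA, per the submitters' processing notes, which also name limma. RMA writes base 2, and the values fit that. Which chip definition or probe filter was used is not stated by the labels. Of 41345 probe sets, 23521 carry 1 gene symbol, 1814 several and 16010 none in the platform annotation. The first kind were reduced to 22180 genes by the highest mean. All genes were tested with limma 3.58.1 in R 4.3.3 (lmFit and eBayes, Benjamini-Hochberg over all genes, threshold 0.05). The measured members alone were also tested by exact permutation of 3 against 3 arrays, which cannot go below 0.1. Errors are SE of the limma fit. The main limma fit, and no other step, was tested on simulated data with independent normal noise. The number of arrays limits the precision.

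The members, lists and rules were chosen with earlier results of these data known. Of 240 list entries, 218 were measured. The rule named the members, the largest calls of each list (up to 6 pathway, 4 class I and 2 per marker list), the 2 markers of highest level per list, H2-Ea, Mmp14 and the 5 nearest profiles without predicted genes. Of these, most genes of the epithelial, fat, fibroblast and vessel lists are left out of the text. Other names are said to be chosen after their values were seen, apart from the other class II chains, Rfx5 and the chromosome 17 neighbours, named as whole sets or as examples. Alternatives were a filter at the 33rd percentile of level, intensity and robust trends, array weights, repeated quantile normalization, median centring, the mean of probe sets, the replicate number as a block and each array left out. Same-numbered arrays showed no shared deviation over all genes (correlations -0.05 to -0.03), so the main fit took no pairing from the numbers. A pairing that touched few genes could not be seen this way.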

Additional observations from a re-analysis of the deposited data

How the results depend on the processing

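All 7 members kept their negative sign under every alternative in which they were tested (14 each, and 13 for H2-DMb1, which the filter on low genes removes). Most of these signs were fixed in advance. The filter, the trends, the mean of probe sets (each member has a single one) and the replicate block leave a member's difference unchanged. Centring adds the same 0.19 to every gene, less than any member's fall. In the 5 members whose groups did not overlap, leaving out an array cannot turn the sign. The number that fell was 2 as reported, 3 with low genes left out, with array weights or with quantile normalization repeated, 2 with the mean of probe sets, 4 with an intensity trend, 5 with a robust trend and 0 with arrays centred on medians (limma; 3 at an unadjusted p under 0.05). Leaving out each array gave 0 to 5. Under the replicate block 0 members passed (limma; 7 at an unadjusted p under 0.05), 11 pathway genes passed where 15 did without it, and 1923 genes passed in all. Pathway calls ranged from 8 to 12 with 1 array left out. Of all genes, 1121 rose and 1596 fell (2717 calls), against 3155 and 1178 (4333 calls) with arrays centred on medians, and 1490 to 2304 passed with 1 array left out. Centring moved the median of all genes by 0.19, so changes of about that size depend on the scaling. The cause of these shifts was not tested. Levels under 2.68, as for H2-DMb1 and H2-Ea, lie too near background for a change to be read.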
